A study of Mus musculus with 9 samples.

Results

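The genes described here are the Dlx homeobox genes of the forebrain and the genes that make and load the transmitter GABA: Dlx1, Dlx2, Dlx5, Dlx6, the antisense transcript Dlx6os1, Gad1, Gad2 and Slc32a1. Their rows were found by gene name among the 22496 genes of one deposited count table and the 23624 genes of the other. The 8 genes filled 9 rows in each table, because a second, short row also carries the name Dlx6os1. Bulk RNA was sequenced from cortex of mice at postnatal day 0, in 9 libraries of a mixed C57BL/6J, 129S6 and CD1 background. In 3 libraries, called ShhN IUE, the brains had received ShhN, the signalling fragment of Sonic hedgehog, by in utero electroporation. Another 3, called SmoM2, came from mice with hGFAP-Cre and the conditional allele SmoM2f, which encodes an always-active Smoothened, the membrane protein that passes on the Hedgehog signal. The last 3 were wild-type (WT) littermates. The hGFAP promoter drives Cre in radial glia, the neural stem cells of the dorsal telencephalon, so SmoM2 is switched on in those cells and passed to their progeny. Electroporation reaches only a portion of the cells, and no library was labelled as electroporated without ShhN. Nothing in the labels states that replicates were separate animals, and a p-value here measures only how far these libraries vary, which may be technical.

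DLX proteins are homeodomain transcription factors of the ganglionic eminences, the ventral telencephalic zones where GABA-releasing neurons are born. The genes lie in the genome as pairs transcribed toward each other. In mice, DLX1 and DLX2 appear first in the lineage, act upstream of Dlx5 and Dlx6, and are needed for interneurons to migrate and for olfactory bulb interneurons to form. Dlx6os1, also known as Evf2, is a long noncoding RNA transcribed across an enhancer between Dlx5 and Dlx6. Gad1 and Gad2 encode the 2 glutamate decarboxylases that make GABA, one found throughout the cell and the other mainly at nerve endings. Slc32a1 encodes the vesicular transporter that loads GABA into synaptic vesicles. Excitatory neurons of the cortex do not normally keep these genes on.

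On GRCm38, as in the deposited tables, Dlx1 lies at chr2:71528113-71533981 on the plus strand and Dlx2 at chr2:71543408-71546754 on the minus strand. Dlx6 lies at chr6:6863334-6868568 on the plus strand and Dlx5 at chr6:6877805-6882085 on the minus strand. Dlx6os1 spans chr6:6820189-6871592 on the minus strand, so that the whole of Dlx6 sits inside its locus on the opposite strand. Gad1 is at chr2:70553072-70602014, Gad2 at chr2:22622205-22693874 and Slc32a1 at chr2:158610767-158615748, all on the plus strand. In the GENCODE M21 gene models, Dlx6 and Dlx6os1 share 0 exonic bases, whereas 104 of the 2375 exonic bases of Dlx6 (4.38%) are shared with Dlx6os2, another antisense model. Dlx1 shares 335 of its 5396 exonic bases (6.21%) with its antisense gene Dlx1as. The sources used here do not give whether counting used strand, so reads from such shared bases cannot be told apart.

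The RefSeq promoter windows on GRCm38.p6 run from 250 bases before to 50 after a transcript start, and were used for 6 of the 8 genes, all but Dlx5 and Dlx6 (Dlx6os1 has 2). A few short motifs were searched on both strands: TAATTA, the core that homeodomain proteins such as the DLX factors bind, CAGCTG, an E-box of the kind bound by basic helix-loop-helix factors, and TGGGTGG, the centre of the GLI site. The 2 windows of Dlx6os1, the gene with the largest fold change of the 8, and that of Dlx2 are printed 5′ to 3′ on the gene's own strand, with motif matches in capitals.
Dlx6os1, chr6:6869484-6869783, minus strand: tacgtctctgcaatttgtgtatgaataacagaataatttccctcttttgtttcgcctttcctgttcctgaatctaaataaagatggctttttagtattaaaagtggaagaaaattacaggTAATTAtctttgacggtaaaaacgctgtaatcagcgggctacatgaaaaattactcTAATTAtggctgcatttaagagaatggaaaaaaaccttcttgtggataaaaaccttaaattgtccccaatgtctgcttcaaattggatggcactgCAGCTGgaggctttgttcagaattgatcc
Dlx6os1, chr6:6861634-6861933, minus strand: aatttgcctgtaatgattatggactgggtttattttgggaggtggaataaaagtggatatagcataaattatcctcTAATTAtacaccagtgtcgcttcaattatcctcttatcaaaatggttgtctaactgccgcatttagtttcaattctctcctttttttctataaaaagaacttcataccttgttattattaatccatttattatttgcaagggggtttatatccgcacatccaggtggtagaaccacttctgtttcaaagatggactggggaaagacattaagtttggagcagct
Dlx2, chr2:71546705-71547004, minus strand: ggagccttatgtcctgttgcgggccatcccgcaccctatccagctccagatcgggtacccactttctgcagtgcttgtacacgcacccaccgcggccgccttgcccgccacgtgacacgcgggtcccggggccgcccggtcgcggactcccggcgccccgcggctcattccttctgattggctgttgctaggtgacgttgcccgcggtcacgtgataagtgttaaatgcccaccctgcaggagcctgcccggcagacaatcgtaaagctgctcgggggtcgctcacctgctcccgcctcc
The first Dlx6os1 window holds 2 copies of TAATTA and 1 CAGCTG, and the second holds 1 TAATTA. Among 32851 mouse windows of the same length, 5.29% hold TAATTA, 16.3% CAGCTG and 9.3% TGGGTGG. None of these letters occurs in the windows of Dlx1, Dlx2, Gad1, Gad2 or Slc32a1. GC content was 35.7% and 35.3% in the Dlx6os1 windows and between 60.0% and 69.3% in the other 5.

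Libraries held 15376071 to 19604672 counts in ShhN IUE and 23625702 to 26923127 in SmoM2. The WT libraries held 18610507 to 21694348 counts in the ShhN IUE table and 18617404 to 21632586 in the SmoM2 table, which were quantified separately. Each group was therefore compared with the WT columns of its own table. Levels are CPM values, counts relative to the TMM-scaled library size, in the order of the replicate numbers. The electroporated gene, Shh, had 51, 52 and 455 counts in the 3 ShhN IUE libraries, against 36, 62 and 31 in WT, or 2.59, 3.09 and 28.5 CPM in ShhN IUE, against 1.87, 2.82 and 1.70 CPM in WT. Library 3 stood apart, library 1 lay within the WT range and library 2 just above it; the counts cannot separate introduced from native transcripts. Gli1, a direct Hedgehog target, measured 26.0, 27.7 and 68.9 CPM in ShhN IUE, against 5.65, 9.13 and 7.75 in WT, and 47.3, 42.7 and 49.96 CPM in SmoM2, against 5.63, 9.14 and 7.71 in WT.

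Of the 8 genes, 5 rose and 0 fell in ShhN IUE, and 5 rose and 1 fell in SmoM2. The 5 that rose were the same in both: Dlx1, Dlx2, Dlx5, Dlx6os1 and Gad1. Over all genes tested, 16.1% of 16180 rose and 17.2% fell in ShhN IUE, and 9.59% of 16485 rose and 9.29% fell in SmoM2, by edgeR's quasi-likelihood test at an adjusted p under 0.05. In either direction, 33.3% and 18.9% of all genes were called. The libraries of the 5 genes that rose lay wholly above WT in both comparisons, as did those of 24.5% of all genes in ShhN IUE and 20.4% in SmoM2. Slc32a1 lay wholly below WT in SmoM2, as did 19.7% of all genes, and none of the 8 did in ShhN IUE, beside 24.9%. The median log2 fold change of the 8 genes was 1.23 in ShhN IUE and 0.92 in SmoM2, beside -0.0038 and -0.0072 over all genes tested. Both comparisons use the same WT libraries and are not independent. In bulk tissue, more cells that express a gene and more RNA per cell cannot be told apart.

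Dlx1 measured 389, 312 and 506 CPM in ShhN IUE (7644, 5265 and 8075 counts), against 120, 131 and 129 CPM in WT (2314, 2893 and 2352 counts). In SmoM2 it measured 376, 378 and 409 CPM, against 134, 124 and 144 CPM in WT. Every ShhN IUE and SmoM2 library lay above every WT library, and the SmoM2 libraries lay closer together than the ShhN IUE libraries. The rise was 3.17-fold in ShhN IUE (log2 fold change 1.66 ± 0.17 SE, adjusted p = 0.000848) and 2.89-fold in SmoM2 (1.53 ± 0.09, adjusted p = 0.000104). Dlx1as, the antisense gene, rose as well, by 1.68 ± 0.25 on the log2 scale in ShhN IUE (adjusted p = 0.00262) and by 1.19 ± 0.21 in SmoM2 (adjusted p = 0.0062).

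Dlx2 measured 135, 140 and 181 CPM in ShhN IUE (2654, 2358 and 2894 counts), against 52.0, 48.0 and 57.9 CPM in WT (1002, 1057 and 1054 counts). In SmoM2 it measured 160, 146 and 172 CPM, against 47.3, 46.7 and 56.7 CPM in WT. The groups did not overlap in either table. Dlx2 rose 2.89-fold in ShhN IUE (1.53 ± 0.14, adjusted p = 0.000714) and 3.17-fold in SmoM2 (1.66 ± 0.11, adjusted p = 0.000159). The genes of this convergent pair kept similar proportions. The ratio of Dlx2 to Dlx1 counts ranged from 0.347 to 0.448 in ShhN IUE and 0.365 to 0.448 in WT, and from 0.386 to 0.425 in SmoM2 and 0.352 to 0.393 in WT (exact permutation p = 0.4 and 0.2). With 3 libraries against 3, the smallest two-sided p such a test can give is 0.1.

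**Figure D1:**
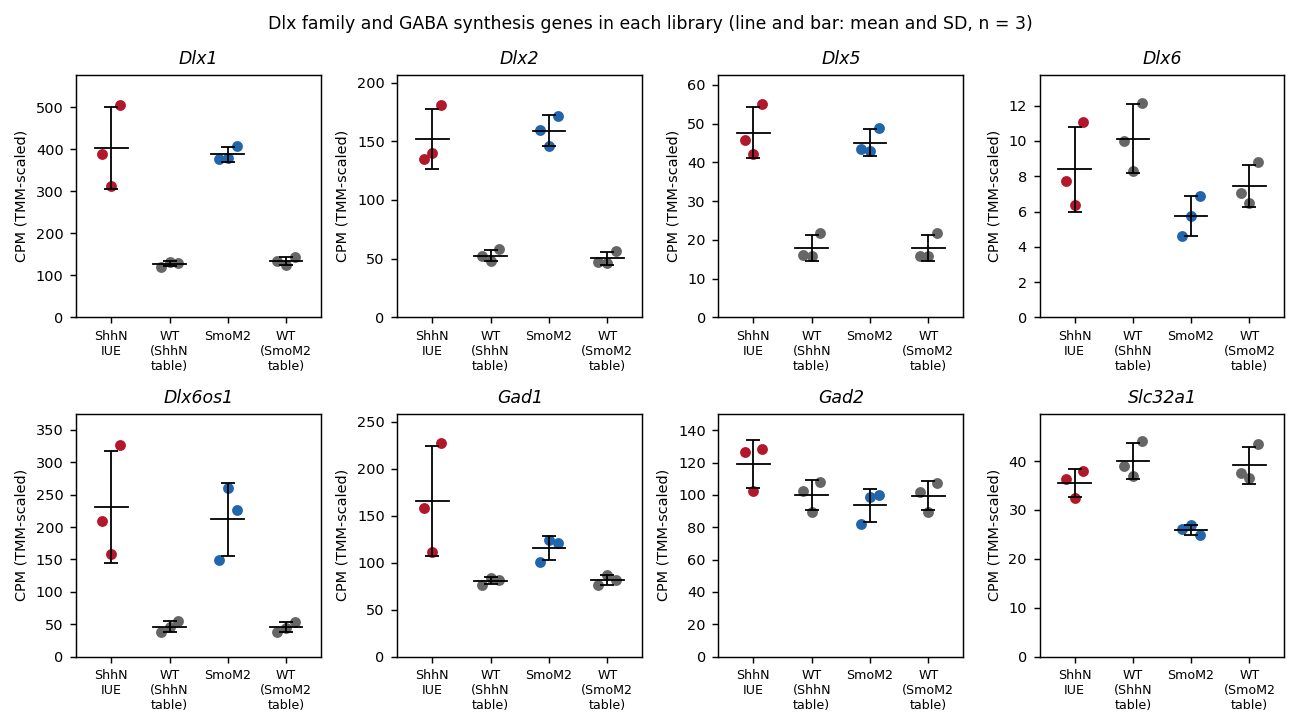
CPM of each gene (vertical axes, each from 0) in each library (points), with the mean as a line and the SD as a bar, for ShhN IUE and SmoM2, each left of the WT values of its own table. Dlx1, Dlx2, Dlx5, Dlx6os1 and Gad1 lie above WT in all ShhN IUE and SmoM2 libraries, Dlx6 and Gad2 overlap WT, and Slc32a1 lies below WT in SmoM2.

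The second pair did not move as one. Dlx5 measured 45.9, 42.3 and 55.0 CPM in ShhN IUE, against 16.1, 15.9 and 21.9 CPM in WT, and 43.6, 42.8 and 49.0 CPM in SmoM2, against 16.0, 15.9 and 21.7 CPM in WT. Its lowest ShhN IUE and SmoM2 libraries were well above its highest WT library. It rose 2.66-fold in ShhN IUE (1.41 ± 0.17, adjusted p = 0.00128) and 2.53-fold in SmoM2 (1.34 ± 0.14, adjusted p = 0.00086).

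Dlx6 measured 7.73, 6.35 and 11.1 CPM in ShhN IUE (152, 107 and 177 counts), against 10.01, 8.27 and 12.1 CPM in WT (193, 182 and 221 counts). In SmoM2 it measured 4.62, 5.72 and 6.86 CPM (126, 135 and 179 counts), against 7.07, 6.51 and 8.81 CPM in WT (137, 143 and 161 counts). The groups overlapped in both tables, with means below WT. Neither difference passed the test (log2 fold change -0.27, 95% interval -0.86 to 0.31, adjusted p = 0.438 in ShhN IUE, and -0.38, interval -0.86 to 0.10, adjusted p = 0.246 in SmoM2). Both intervals end far below the fold changes of Dlx5. The WT libraries gave 596 Dlx6 counts in the ShhN IUE table and 441 in the SmoM2 table, although they are the same libraries, so its level depends on the quantification. The other 7 genes agreed between the tables within 0.1 on the log2 scale.

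Dlx6os1 measured 209, 158 and 326 CPM in ShhN IUE (4116, 2660 and 5212 counts), against 38.5, 45.8 and 54.9 CPM in WT (743, 1008 and 999 counts). In SmoM2 it measured 149, 261 and 226 CPM (4062, 6149 and 5884 counts), against 38.0, 44.6 and 53.6 CPM in WT. No libraries overlapped between groups, and the spread within ShhN IUE and SmoM2 was wide. It had the largest fold change of the 8 genes in both comparisons, 4.98-fold in ShhN IUE (2.32 ± 0.26, adjusted p = 0.00107) and 4.67-fold in SmoM2 (2.22 ± 0.21, adjusted p = 0.000601). The short Dlx6os1 row, an annotated model of 146 exonic bases, had at most 3 counts in a library and was not tested.

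Within a library the proportions at this locus were far from those of WT. There were 0.151 to 0.202 Dlx6 counts per Dlx5 count in ShhN IUE, against 0.521 to 0.623 in WT, and 0.107 to 0.140 in SmoM2, against 0.407 to 0.444 in WT. Dlx6os1 had 24.7 to 29.4 counts per Dlx6 count in ShhN IUE, against 3.84 to 5.53 in WT, and 32.1 to 45.4 in SmoM2, against 5.35 to 6.84 in WT. The groups did not overlap for either ratio in either table, and each test gave the smallest possible p (exact permutation p = 0.1; 0.127 after adjustment over the 14 ratio comparisons). Dlx5 counts per Dlx2 count overlapped between ShhN IUE (0.302 to 0.340) and WT (0.310 to 0.378; exact permutation p = 0.5), and were lower in every SmoM2 library (0.273 to 0.294) than in WT (0.338 to 0.382; exact permutation p = 0.1). These ratios do not depend on library scaling, but those with Dlx6 depend on the quantification. The same WT libraries gave 0.521 to 0.623 Dlx6 counts per Dlx5 count in the ShhN IUE table and 0.407 to 0.444 in the SmoM2 table.

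**Figure D2:**
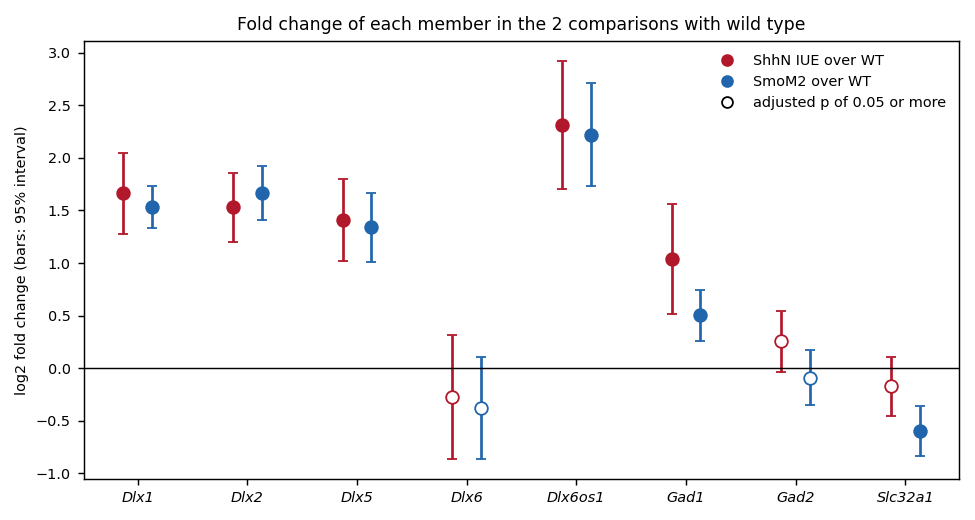
Log2 fold change (vertical axis) of each gene, ShhN IUE over WT in red and SmoM2 over WT in blue, with 95% intervals from edgeR's fit; open points have an adjusted p of 0.05 or more. Dlx1, Dlx2, Dlx5 and Dlx6os1 lie between 1.34 and 2.32 in both comparisons, while Dlx6 and Gad2 have intervals that include 0.

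The genes of GABA synthesis and packaging had smaller fold changes than Dlx1, Dlx2, Dlx5 and Dlx6os1, and not all in one direction. Gad1 measured 158, 112 and 227 CPM in ShhN IUE (3113, 1882 and 3633 counts), against 76.5, 84.1 and 81.3 CPM in WT (1475, 1850 and 1480 counts). In SmoM2 it measured 101, 125 and 121 CPM, against 76.1, 87.1 and 81.1 CPM in WT. The groups did not overlap, and the highest ShhN IUE library again was library 3. Gad1 rose 2.06-fold in ShhN IUE (1.04 ± 0.23, adjusted p = 0.0109) and 1.42-fold in SmoM2 (0.50 ± 0.11, adjusted p = 0.0147). The SmoM2 call was lost without SmoM2 replicate 2 (adjusted p = 0.0599) or replicate 3 (adjusted p = 0.0701).

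Gad2 measured 127, 102 and 129 CPM in ShhN IUE, against 102, 89.6 and 108 CPM in WT, and 81.9, 98.6 and 100 CPM in SmoM2, against 102, 89.6 and 107 CPM in WT. The groups overlapped in both tables. The log2 fold change was 0.25 in ShhN IUE (95% interval -0.03 to 0.54, adjusted p = 0.148) and -0.09 in SmoM2 (interval -0.35 to 0.17, adjusted p = 0.622). A rise of Gad2 as large as that of Dlx2 lies outside both intervals.

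Slc32a1 measured 36.3, 32.4 and 37.9 CPM in ShhN IUE, against 39.1, 37.0 and 44.2 CPM in WT. In SmoM2 it measured 26.1, 26.8 and 24.8 CPM (711, 633 and 647 counts), against 37.5, 36.5 and 43.4 CPM in WT (726, 802 and 793 counts). The ShhN IUE and WT libraries overlapped, while all SmoM2 libraries lay below all WT libraries. Slc32a1 fell to 0.662 of the WT level in SmoM2 (-0.59 ± 0.10, adjusted p = 0.00664). In ShhN IUE the log2 fold change was -0.17 (95% interval -0.45 to 0.10, adjusted p = 0.299).

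Relative to Gad1, both Gad2 and Slc32a1 were lower in all ShhN IUE and SmoM2 libraries than in any WT library. Gad2 had 0.565 to 0.915 counts per Gad1 count in ShhN IUE, against 1.07 to 1.34 in WT, and 0.792 to 0.829 in SmoM2, against 1.03 to 1.33 in WT. Slc32a1 had 0.167 to 0.290 counts per Gad1 count in ShhN IUE, against 0.440 to 0.543 in WT, and 0.206 to 0.258 in SmoM2, against 0.419 to 0.535 in WT. Dlx2 had more counts per Gad1 count, 0.797 to 1.25 in ShhN IUE, against 0.571 to 0.712 in WT, and 1.17 to 1.58 in SmoM2, against 0.536 to 0.699 in WT. For these 3 ratios each exact permutation p was 0.1, the smallest possible.

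**Figure D3:**
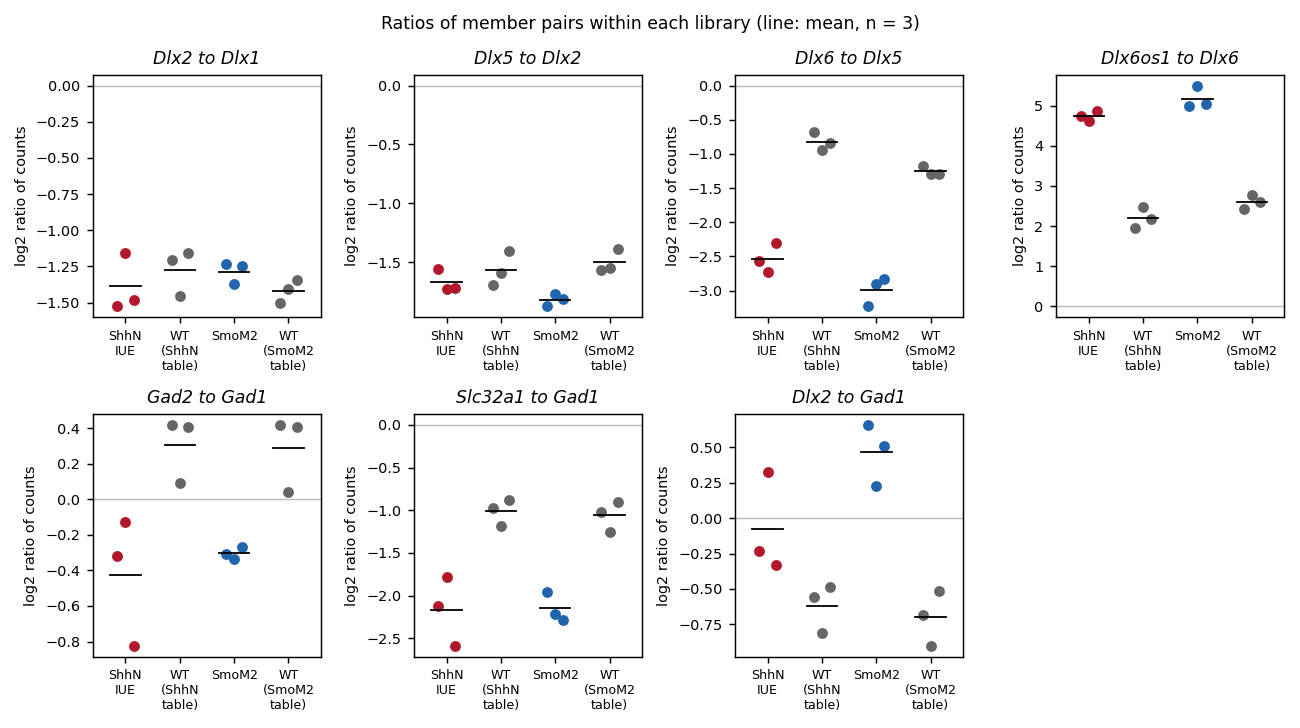
Log2 ratio of the counts of 2 genes in the same library (vertical axes, not starting at 0), with group means as lines, for ShhN IUE and SmoM2, each left of the WT values of its own table. Dlx6 to Dlx5, Dlx6os1 to Dlx6, Gad2 to Gad1, Slc32a1 to Gad1 and Dlx2 to Gad1 do not overlap with WT in either table.

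All 8 genes were highest in ShhN IUE library 3 among the libraries of that group, and 7 of the 8 were lowest in library 2. Within the other groups, too, the 8 genes tended to be highest in the same library. Replicate numbers were not read as pairs across groups. WT replicate 3 was highest for 6 of the 8 genes in the ShhN IUE table and for 7 in the SmoM2 table. WT replicate 2 was lowest for 5 and 6, and SmoM2 replicate 3 was highest for 5. ShhN IUE library 3 also had the most Shh counts and the most Gli1 of its group, but a link to the 8 genes was not tested. Without ShhN IUE library 3 the log2 fold changes in ShhN IUE were 1.99 for Dlx6os1, 1.48 for Dlx1, 1.40 for Dlx2, 1.31 for Dlx5 and 0.75 for Gad1, and the highest of their adjusted p-values was 0.0129, for Gad1.

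Levels of different genes can be set side by side only per length. The authors' deposited FPKM values were used, whose gene lengths are not given. In ShhN IUE the order was Dlx2 (49.9 ± 9.44 FPKM, SD, n = 3), Dlx1 (38.6 ± 10.1), Dlx6os1 (26.0 ± 10.3), Gad2 (20.2 ± 2.76), Gad1 (16.6 ± 6.16), Dlx5 (14.0 ± 2.23), Slc32a1 (12.9 ± 1.24) and Dlx6 (2.75 ± 0.86). All neighbours in that order overlapped except Slc32a1 and Dlx6. In SmoM2 the order was Dlx2 (51.7 ± 4.53 FPKM), Dlx1 (36.8 ± 1.87), Dlx6os1 (23.5 ± 6.21), Gad2 (15.7 ± 1.66), Dlx5 (13.2 ± 1.04), Gad1 (11.4 ± 1.19), Slc32a1 (9.33 ± 0.32) and Dlx6 (1.86 ± 0.37), and Dlx6os1 overlapped Gad2, as Gad2 did Dlx5. In WT, from the ShhN IUE table, it was Dlx2 (16.7 ± 1.38 FPKM), Gad2 (16.4 ± 1.23), Slc32a1 (14.1 ± 1.17), Dlx1 (11.8 ± 0.86), Gad1 (7.78 ± 0.58), Dlx5 (5.11 ± 0.94), Dlx6os1 (5.05 ± 0.92) and Dlx6 (3.21 ± 0.57). There Dlx2 overlapped Gad2, Gad2 overlapped Slc32a1, and Dlx5 overlapped Dlx6os1. In WT from the SmoM2 table, Gad2 (16.4 ± 1.20 FPKM) came before Dlx2 (16.0 ± 1.72). Slc32a1 (13.8 ± 1.23) overlapped Dlx1 (12.5 ± 0.77) there. By mean deposited FPKM, Dlx2 and Dlx1 headed the order in ShhN IUE and SmoM2, and Dlx2, Gad2 and Slc32a1 headed it in WT. These orders depend on the lengths behind the FPKM. In ShhN IUE library 1, Dlx1 had 7644 counts on 5396 exonic bases and 36.8 FPKM. Dlx2 had 2654 counts on 2855 exonic bases there and 43.7 FPKM. Counts per exonic base thus place Dlx1 above Dlx2 in that library, so the order by FPKM is not firm.

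SmoM2 was also compared directly with ShhN IUE, in one fit of all 9 libraries over genes whose WT counts agreed between the tables. Of the 7 genes tested there, 0 rose and 1 fell, beside 8.44% and 8.11% of the 12349 genes tested (16.5% in either direction). Gad2 and Slc32a1 lay wholly below ShhN IUE, as did 20.6% of all genes, and none of the 7 lay wholly above, beside 20.3%. Slc32a1 was the gene that fell, at 39.3 ± 1.58 CPM in SmoM2 and 54.3 ± 4.12 CPM in ShhN IUE (SD, n = 3 each, on the scale of this fit; log2 fold change -0.47 ± 0.10, adjusted p = 0.0135). Its call was lost without ShhN IUE replicate 1 (adjusted p = 0.0691) or SmoM2 replicate 3 (adjusted p = 0.0663). Gad1 averaged 175 ± 18.7 CPM in SmoM2 and 253 ± 87.3 CPM in ShhN IUE (-0.53, 95% interval -0.97 to -0.09, adjusted p = 0.0926), and Gad2 averaged 142 ± 15.1 CPM in SmoM2 and 182 ± 22.2 CPM in ShhN IUE (-0.36 ± 0.12, adjusted p = 0.0609). Neither passed, but DESeq2 called both (adjusted p = 0.0408 for Gad1 and 0.0323 for Gad2), as did edgeR without ShhN IUE replicate 2 (adjusted p = 0.0112 and 0.0300).

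The Dlx genes gave no call between SmoM2 and ShhN IUE. The log2 fold change was -0.06 for Dlx1 (95% interval -0.37 to 0.24, adjusted p = 0.785) and 0.05 for Dlx2 (interval -0.22 to 0.33, adjusted p = 0.792). For Dlx5 it was -0.09 ± 0.14 (adjusted p = 0.697) and for Dlx6os1 -0.14 ± 0.26 (adjusted p = 0.750). Dlx6 was not tested there because its WT counts disagreed.

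In the authors' deposited table for ShhN IUE, Dlx1, Dlx2, Dlx5, Dlx6os1 and Gad1 were called up, with q = 0.00011 for Gad1. In the authors' deposited table for SmoM2 the calls were Dlx1, Dlx2, Dlx5 and Dlx6os1, and Gad1 (q = 0.00696) and Slc32a1 (q = 0.0112) carried no call.

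Levels over the 9 libraries were also compared with those of Dlx2. Among 9051 genes with a mean of at least 5 CPM, Pearson's r of log2 CPM with Dlx2 was highest for Dlx5 (0.990) and Dlx1 (0.989). Outside the 8 genes, and with predicted and clone-derived gene names left out (the gene at rank 5 among them), it was highest for Foxm1 (0.988), a transcription factor of dividing cells, Sp8 (0.988), a zinc-finger factor of the dorsal lateral eminence and of olfactory bulb interneurons, Ckap2 (0.988), a spindle protein, Entpd2 (0.987), an ectonucleotidase of neural progenitors, and Prr11 (0.986), a cell cycle gene. The value was 0.965 for Dlx6os1 (rank 71), 0.770 for Gad1 (rank 1291), 0.250 for Gad2 and -0.618 for Slc32a1. These values mostly reflect the differences between the 3 groups, since the points are 3 libraries of each.

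Transcription factors known from the ganglionic eminences, those upstream of the Dlx genes among them, moved mostly upward. Of 23 tested, 15 rose and 1 fell in ShhN IUE (median log2 fold change 0.88), and 14 rose and 1 fell in SmoM2 (median 0.90). Over all genes tested, 16.1% rose and 17.2% fell in ShhN IUE, and 9.59% rose and 9.29% fell in SmoM2. These shares stand beside the counts of every list below. In ShhN IUE, 8 rose without WT replicate 3, and 2 fell without ShhN IUE replicate 3. Gsx2, a homeobox factor of lateral eminence progenitors, averaged 9.49 ± 0.72 CPM in ShhN IUE and 1.77 ± 0.48 CPM in WT (2.42 ± 0.26, adjusted p = 0.00099), and 5.06 ± 0.39 CPM in SmoM2 and 1.72 ± 0.45 CPM in WT (1.56 ± 0.24, adjusted p = 0.00438). Compared directly, it was lower in SmoM2 than in ShhN IUE (log2 fold change -0.92 ± 0.21, adjusted p = 0.0146). That call was lost without ShhN IUE replicate 1 (adjusted p = 0.0529), SmoM2 replicate 1 (0.0533) or SmoM2 replicate 2 (0.0692). Sp8 rose 7.74-fold in ShhN IUE and 7.38-fold in SmoM2, and Sp9, its relative, 2.20-fold and 2.92-fold. The gene that fell was Six3, which is also a striatal marker. Of the other Dlx genes and their antisense transcripts, only Dlx1as had enough counts to be tested.

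Markers of the neurons that normally use Dlx genes fell or split. Of 22 markers of striatal projection neurons, 0 rose and 17 fell in ShhN IUE (median -2.55), and of 21 tested in SmoM2, 0 rose and 19 fell (median -2.30). Their summed level was 343 to 435 CPM in ShhN IUE, against 523 to 710 CPM in WT, and 410 to 421 CPM in SmoM2, against 695 to 922 CPM in WT. The same WT libraries differed in this sum between the tables, so these sums too rest on unequal quantification. The dopamine receptor gene Drd2 averaged 0.373 ± 0.161 CPM in ShhN IUE and 4.83 ± 0.79 CPM in WT, and 0.343 ± 0.193 CPM in SmoM2 and 4.79 ± 0.75 CPM in WT. Tac1, a neuropeptide precursor of direct-pathway neurons, was likewise near 0, at 0.371 ± 0.168 CPM in ShhN IUE and 10.8 ± 1.13 CPM in WT, and 0.355 ± 0.096 CPM in SmoM2 and 10.5 ± 1.06 CPM in WT. Drd1 fell by 1.55 ± 0.27 on the log2 scale in ShhN IUE (adjusted p = 0.00455) and by 1.48 ± 0.30 in SmoM2 (adjusted p = 0.0119), where the call was lost without SmoM2 replicate 1 (0.051) or 3 (0.0575).

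Of 23 markers of cortical interneurons from the medial and caudal eminences (MGE and CGE), 4 rose and 13 fell in ShhN IUE (median -0.84), and 2 rose and 12 fell in SmoM2 (median -0.76). Of all genes, 16.1% rose and 17.2% fell in ShhN IUE, and 9.59% and 9.29% in SmoM2, so the risers were near that share. They summed to 1123 to 1306 CPM in ShhN IUE, against 1642 to 1814 CPM in WT, and to 1079 to 1139 CPM in SmoM2, against 1618 to 1833 CPM in WT. Lhx6, the factor that specifies interneurons of the medial eminence, averaged 49.7 ± 8.05 CPM in ShhN IUE and 89.4 ± 9.05 CPM in WT (adjusted p = 0.00473), and 39.8 ± 1.93 CPM in SmoM2 and 102 ± 16.1 CPM in WT (adjusted p = 0.000512). Sst, the neuropeptide somatostatin of one interneuron class, fell by 1.71 ± 0.23 on the log2 scale in ShhN IUE and by 2.58 ± 0.21 in SmoM2. Htr3a, a serotonin receptor gene of caudal eminence interneurons, rose instead, by 2.03 ± 0.26 in ShhN IUE and 0.99 ± 0.23 in SmoM2, and the SmoM2 call was lost without any 1 SmoM2 library or WT replicate 2 (adjusted p of 0.0537 to 0.0776). In SmoM2, 0 of the markers rose without SmoM2 replicate 1, and 1 without SmoM2 replicate 2 or 3 or WT replicate 2. Pvalb, with 2 counts in all in the SmoM2 table, was not tested.

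Markers of the olfactory bulb interneuron lineage, in which Dlx genes also act, moved upward more often than downward. In ShhN IUE 8 of 21 rose and 4 fell (median 0.62), and in SmoM2 9 of 20 rose and 3 fell (median 0.24). Of all genes, 16.1% rose and 17.2% fell in ShhN IUE, and 9.59% and 9.29% in SmoM2. The markers that fell in ShhN IUE were thus near the share of all genes. They summed to 3546 to 3879 CPM in ShhN IUE, against 3662 to 4131 CPM in WT, and to 3387 to 3575 CPM in SmoM2, against 2805 to 3135 CPM in WT. The WT libraries are the same, yet their sums differed between the tables, over 21 and 20 genes. The 2 comparisons of sums thus rest on unequal quantification. Cdca7 rose 4.84-fold in ShhN IUE and 4.23-fold in SmoM2, Pax6 4.08-fold and 2.14-fold, and Tshz1 1.72-fold and 2.67-fold. For Pax6, WT averaged 16.3 CPM in the ShhN IUE table and 19.4 CPM in the SmoM2 table. The genes that fell, named here because their count is small, were Gng4, Cpne4, Synpr and Dcx in ShhN IUE and Gng4, Cpne4 and Eomes in SmoM2. Gng4, a G protein subunit gene, had a log2 fold change of -1.90 ± 0.18 in ShhN IUE and -1.34 ± 0.15 in SmoM2. Tshz1 lost its ShhN IUE call without ShhN IUE replicate 1 (adjusted p = 0.0648), WT replicate 2 (0.0583) or WT replicate 3 (0.0605). Sp8, Sp9, Pax6, Gsx2 and other genes are in both this list and that of eminence factors, so their counts are not separate. Glutamatergic markers included none that rose; 5 of 15 fell in ShhN IUE (median -0.14; summed 2444 to 3270 CPM, against 3016 to 3717 CPM in WT) and 8 of 15 in SmoM2 (median -0.76; summed 2755 to 2869 CPM, against 3278 to 3764 CPM in WT). In ShhN IUE, 2 of them rose without ShhN IUE replicate 3, and 1 by DESeq2. The part of these cell types in the levels of the 8 genes was not tested.

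**Figure D4:**
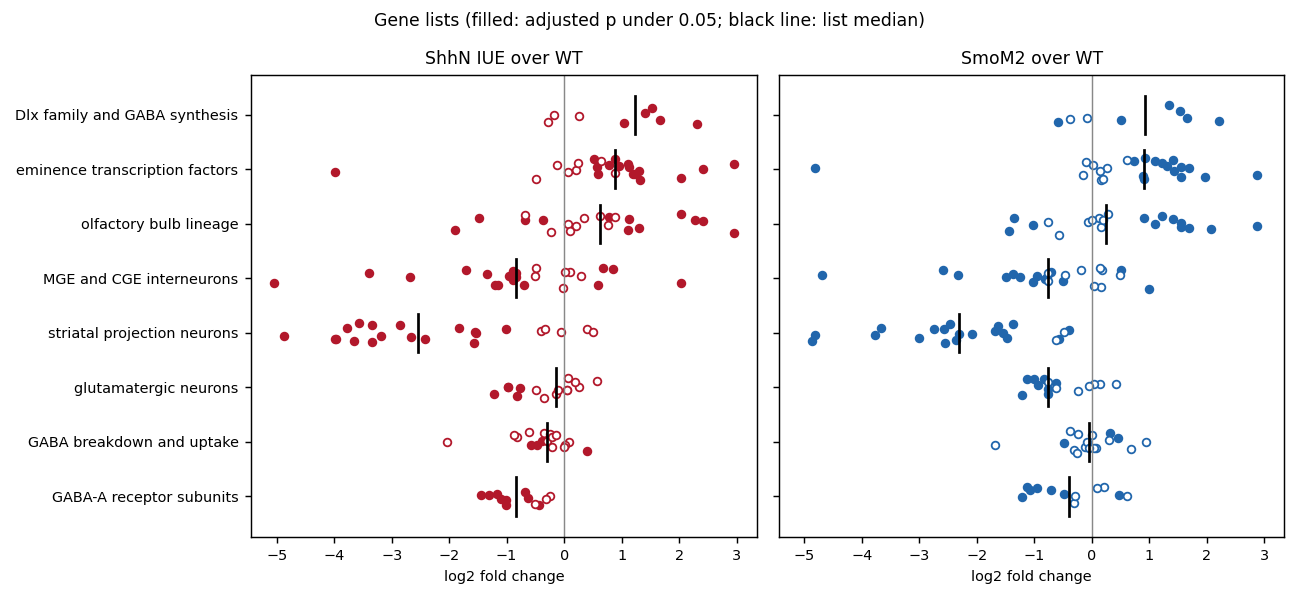
Log2 fold change (horizontal axes) of each tested gene of the lists, ShhN IUE over WT at left and SmoM2 over WT at right; filled points have an adjusted p under 0.05 and black lines are list medians. Striatal and most MGE and CGE interneuron markers lie left of 0, and most eminence transcription factors lie right of it, with Six3 at the far left.

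Of 17 tested genes that take up, break down or supply GABA, 1 rose and 3 fell in ShhN IUE (median -0.31), beside 16.1% and 17.2% of all genes, and 2 rose and 1 fell in SmoM2 (median -0.04), beside 9.59% and 9.29%. Abat, the transaminase that degrades GABA, had log2 fold changes of -0.21 ± 0.19 in ShhN IUE (adjusted p = 0.427) and -0.31 ± 0.10 in SmoM2 (adjusted p = 0.074, and 0.0491 by DESeq2). Glul, the glutamine synthetase of glia, rose in both, by 0.39 ± 0.12 in ShhN IUE (adjusted p = 0.0359) and by 0.31 ± 0.09 in SmoM2 (adjusted p = 0.039), but either call was lost without 1 of several libraries, among them any SmoM2 library in SmoM2 and ShhN IUE replicate 1 or 3 in ShhN IUE (adjusted p of 0.0677 and 0.0815). Slc6a11, a transporter of astrocytes, rose in SmoM2 (0.45 ± 0.09, adjusted p = 0.0139, and 0.0523 without SmoM2 replicate 1), while in ShhN IUE it had -0.00 ± 0.11 (adjusted p = 0.986), and it was higher in SmoM2 than in ShhN IUE (0.43 ± 0.09, adjusted p = 0.0108). The genes that fell included Aldh9a1 in both, and Slc6a6 in ShhN IUE. In ShhN IUE, 0 rose without ShhN IUE replicate 1 or 3 or WT replicate 1 or 3. In SmoM2, 0 rose without SmoM2 replicate 1 and 1 without SmoM2 replicate 2 or 3 or WT replicate 3, while 0 fell without any 1 SmoM2 library or WT replicate 2, and 3 fell without WT replicate 1 or by DESeq2. Aldh9a1 lost its ShhN IUE call under upper-quartile scaling (adjusted p = 0.0744), with no filter (0.0675), by limma-voom (0.0542) and when any 1 library but WT replicate 3 was left out, and its SmoM2 call without any 1 SmoM2 library or WT replicate 2.

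On the receiving side, 9 of 12 subunits of the GABA-A receptor fell and 0 rose in ShhN IUE (median -0.84), and 6 fell and 1 rose in SmoM2 (median -0.40). Without ShhN IUE replicate 2, 5 fell in ShhN IUE, and in SmoM2 0 rose without any 1 SmoM2 library or WT replicate 1, and 2 by DESeq2 or limma-voom. The 12 summed to 424 to 504 CPM in ShhN IUE, against 768 to 840 CPM in WT, and to 666 to 748 CPM in SmoM2, against 843 to 900 CPM in WT. Gabra5 fell by 1.44 ± 0.17 on the log2 scale in ShhN IUE and by 0.95 ± 0.09 in SmoM2, and Gabrg3 by 1.31 ± 0.19 and 1.21 ± 0.15. The WT libraries averaged 58.4 CPM of Gabra5 in the ShhN IUE table and 94.5 CPM in the SmoM2 table, so its fold changes rest on unequal quantification.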

How the data were processed

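Bulk RNA-seq of postnatal day 0 cortex was analysed from 2 tables, in which the authors deposited read counts and FPKM values per gene for 6 libraries each. The same 3 WT libraries are in both. The submitters' processing notes name the tools HISAT2, StringTie and edgeR, and GRCm38.p4 and mm10 as builds. The authors' deposited q-values (their adjusted p-values) were used only where named. Groups came from the labels. The 8 genes and all lists were chosen with earlier results of these data known.

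Counts were tested with edgeR 4.0.16 in R 4.3.3, by its quasi-likelihood F test with TMM scaling, filterByExpr by group and Benjamini-Hochberg adjustment over all genes tested (threshold 0.05). Each group was compared with WT of its own table. SmoM2 was compared with ShhN IUE over genes whose summed WT counts, with 5 added, agreed within 0.1 on the log2 scale, and WT counts were averaged over the tables. SE was computed as the log2 fold change over the square root of F. Within-library ratios used 0.5 added counts and a two-sided exact permutation test. Named genes are the 8 genes, 3 more per list and comparison with WT (smallest adjusted p), a fixed set that includes Gsx2, Sp8, Sp9, Lhx6, Sst, Drd1, Drd2, Abat and Slc17a7, and the 5 most like Dlx2; some are not reported here. Alternatives were RLE and upper-quartile scaling, no filter, DESeq2 1.42.0, limma-voom 3.58.1, a replicate block, other tolerances for WT agreement, and leaving out each library. The edgeR step was checked on simulated counts. Replicates vary by more than counting error, so errors are given over libraries.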

Additional observations from a re-analysis of the deposited data

How the results depend on the processing

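No called direction of the 8 genes reversed under RLE or upper-quartile scaling, no expression filter, DESeq2, limma-voom, the replicate block or leaving out 1 library. Over these 12 alternatives for each comparison with WT, the log2 fold change in ShhN IUE spanned 1.48 to 1.83 for Dlx1 and 0.75 to 1.27 for Gad1 (highest adjusted p = 0.00537 and 0.039), and in SmoM2 -0.65 to -0.50 for Slc32a1 (highest adjusted p = 0.0467). With DESeq2, 3 of the genes fell between SmoM2 and ShhN IUE instead of 1. No ratio whose groups did not overlap changed direction with FPKM in place of counts or without 1 library. When 1 library was left out, the genes that rose and fell over the whole table numbered 1567 to 2299 and 1684 to 2325 in ShhN IUE, 733 to 1598 and 601 to 1412 in SmoM2, and 484 to 1259 and 354 to 1083 between SmoM2 and ShhN IUE. Of the 8 genes, 4 to 5 then rose in SmoM2, and 0 to 3 fell between SmoM2 and ShhN IUE. Replicates of the same number did not deviate together (correlations of -0.322 to 0.278), so the numbers were not read as pairs. With the replicate block, 1904 genes rose and 2058 fell in ShhN IUE, 1268 and 1200 in SmoM2, and 807 and 714 between SmoM2 and ShhN IUE, and of the 8 genes 5 rose and 0 fell, 5 rose and 1 fell, and 0 rose and 1 fell. The block also ended the calls of Glul (adjusted p = 0.058 in ShhN IUE and 0.052 in SmoM2) and of Aldh9a1 in ShhN IUE (0.117), leaving 0 risers in ShhN IUE and 1 in SmoM2 among genes of GABA breakdown, uptake and supply. Dlx6 had few counts and unequal WT counts in the 2 tables, which limits what its comparison can show.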
